A study of Arabidopsis thaliana with 12 samples.

Results

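Genes of jasmonate synthesis and response, 10 in number, were followed through RNA sequencing of Arabidopsis thaliana seedlings. They were taken by gene identifier, 10 of the 32833 genes in the deposited table. LOX2, AOS, AOC1, AOC2 and OPR3 encode enzymes of jasmonate synthesis, JAZ1 and JAZ10 encode repressors of the response, MYC2 encodes a transcription factor, and VSP1 and VSP2 encode vegetative storage proteins. Of these genes, 9 had enough counts to be tested, and MYC2 had none in any library. The 4 groups were phod2 seedlings in P-, phod2 seedlings in P+, KC seedlings in P- and KC seedlings in P+, with 3 libraries each. All were whole seedlings aged 8 days, and 1.3 µg of RNA went into each library. The design text states 3 biological replicates per genotype. The series title concerns a plastid lipoyl synthase and phosphate homeostasis, and P+ and P- were therefore read as high and low phosphate. No phosphate concentration is given, KC is not spelled out, and the gene altered in phod2 is not named in the labels. The deposited table heads the columns of KC P+ with WT, so that every comparison with KC P+ would also hold a difference between WT and KC if these were different lines.

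Jasmonates are oxygenated lipid hormones made from the polyunsaturated fatty acids of plastid membranes. A lipoxygenase, allene oxide synthase and allene oxide cyclase act in sequence in the plastid to give the cyclic precursor OPDA, which OPR3 reduces in the peroxisome before the side chain is shortened. Conjugation to isoleucine by JAR1 gives the active hormone, and the hormone joins the receptor COI1 to JAZ repressors, which are then degraded, so that MYC2 and related factors are set free. In leaves the pathway is known for its role in wounding and defence against insects. The storage proteins VSP1 and VSP2 are its classical outputs and belong to an acid phosphatase family, and JAZ genes are themselves targets of the factors they repress.

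Total counts were 16821084 to 23327960 per library. The second phod2 P- library was set apart from the other two, and its difference from them followed gene length (Spearman's rho -0.69 over genes, which are not independent). Differences in counts between 2 libraries were set against counting error alone. Their chi-square was 31.7 to 32.8 per gene in the 2 pairs with that library and 1.39 to 2.2 in the other 10 within-group pairs. Results for phod2 P- are therefore also given without that library. Seedling identity was read from 5 leaf photosynthesis genes and 5 root genes, none of which was at 0. The summed level of the photosynthesis genes was 34973 to 48104 CPM (counts scaled to the library total by the TMM method) in phod2 P-, 33977 to 34366 in phod2 P+, 36924 to 37632 in KC P- and 33615 to 33786 in KC P+.

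Marker genes of the day cycle and of the root also moved between the groups. The 7 morning clock genes, with CCA1 among them, summed to 662 to 804 CPM in phod2 P-, 17.6 to 19.3 in phod2 P+, 756 to 776 in KC P- and 17.9 to 20.2 in KC P+. CCA1 alone had means of 144, 0.222, 159 and 0.325 CPM in the same order of groups. The 7 evening genes, with TOC1 among them, summed to 78.4 to 99.4 CPM in phod2 P-, 501 to 506 in phod2 P+, 105 to 107 in KC P- and 505 to 513 in KC P+. The labels give no harvest time, so that phosphate condition and time of day cannot be told apart in any comparison of P- with P+, and a difference between the genotypes in that change has the same limit. Root genes summed to 1693 to 1776 CPM in phod2 P-, 1612 to 1636 in phod2 P+, 2586 to 2617 in KC P- and 3848 to 3907 in KC P+. Unlike the sum, COBL9, EXPA7 and EXPA18 were higher in KC P- (10.6, 14.4 and 14.6 CPM) than in KC P+ (7.13, 7.98 and 5.87). CASP1 was lower, at 14.0 CPM in KC P- and 32.0 in KC P+. PYK10 made up most of each sum, at means of 1723, 1611, 2546 and 3831 CPM in phod2 P-, phod2 P+, KC P- and KC P+. Phosphate starvation genes, 6 in number with SPX1 among them, summed to 1116 to 1321, 144 to 146, 342 to 369 and 20.8 to 22.4 CPM in the same order. None of these lists had a gene at 0 in every library. In bulk seedlings, fewer cells of a type and less RNA per cell cannot be told apart.

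**Figure D1:**
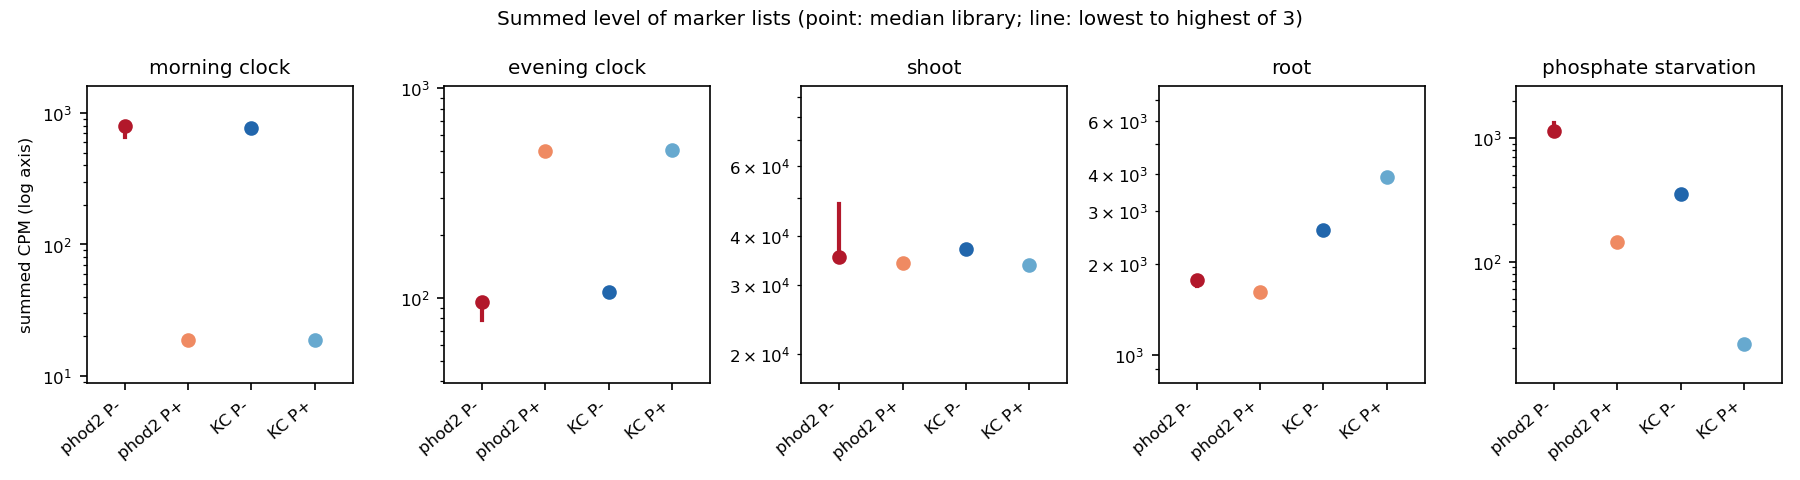
Summed TMM-scaled CPM (log axis) of each marker list by group, with the median library as a point and the lowest to highest of 3 libraries as a line. Morning clock genes sum to 662 to 804 CPM in phod2 P- and 17.6 to 19.3 in phod2 P+. The root sum, most of it PYK10, lies lower in phod2 than in KC in both conditions.

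Levels of the 9 tested genes were first set side by side per exon length, as the deposited FPKM (fragments scaled to exon length and library total, mean ± SD, n = 3 in every group, here and for all levels). LOX2 had the highest mean in every group, at 314 ± 56.3 FPKM in phod2 P-, 313 ± 3.99 in phod2 P+, 198 ± 8.12 in KC P- and 279.9 ± 2.06 in KC P+. JAZ10 had the lowest, at 1.05 ± 0.136, 1.68 ± 0.301, 1.35 ± 0.313 and 1.31 ± 0.127 FPKM in the same order of groups. In phod2 P- the order below LOX2 was VSP2 with 217 ± 34.2, AOC2 with 212 ± 16.4, AOS with 129.7 ± 5.45, AOC1 with 92.3 ± 3.02, VSP1 with 28.1 ± 3.75, OPR3 with 21.2 ± 0.340 and JAZ1 with 11.2 ± 0.756 FPKM. VSP2 and AOC2 differed there by less than their SD. In phod2 P+ VSP2 stood lower in the order, below OPR3, at 25.6 ± 2.05 against 32.2 ± 0.645 FPKM for OPR3, and VSP1 (5.82 ± 0.241) and JAZ1 (5.78 ± 0.466) differed by less than their SD. In KC P- AOC2 (90.6 ± 1.22) lay above AOS (85.7 ± 1.64) by more than their SD, VSP2 (62.2 ± 1.16) lay above AOC1 (32.0 ± 1.39), and VSP1 (16.3 ± 1.33) and OPR3 (14.8 ± 0.915) followed. In KC P+ VSP1 (17.0 ± 1.103) and VSP2 (16.9 ± 0.427) differed by less than their SD.

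**Figure D2:**
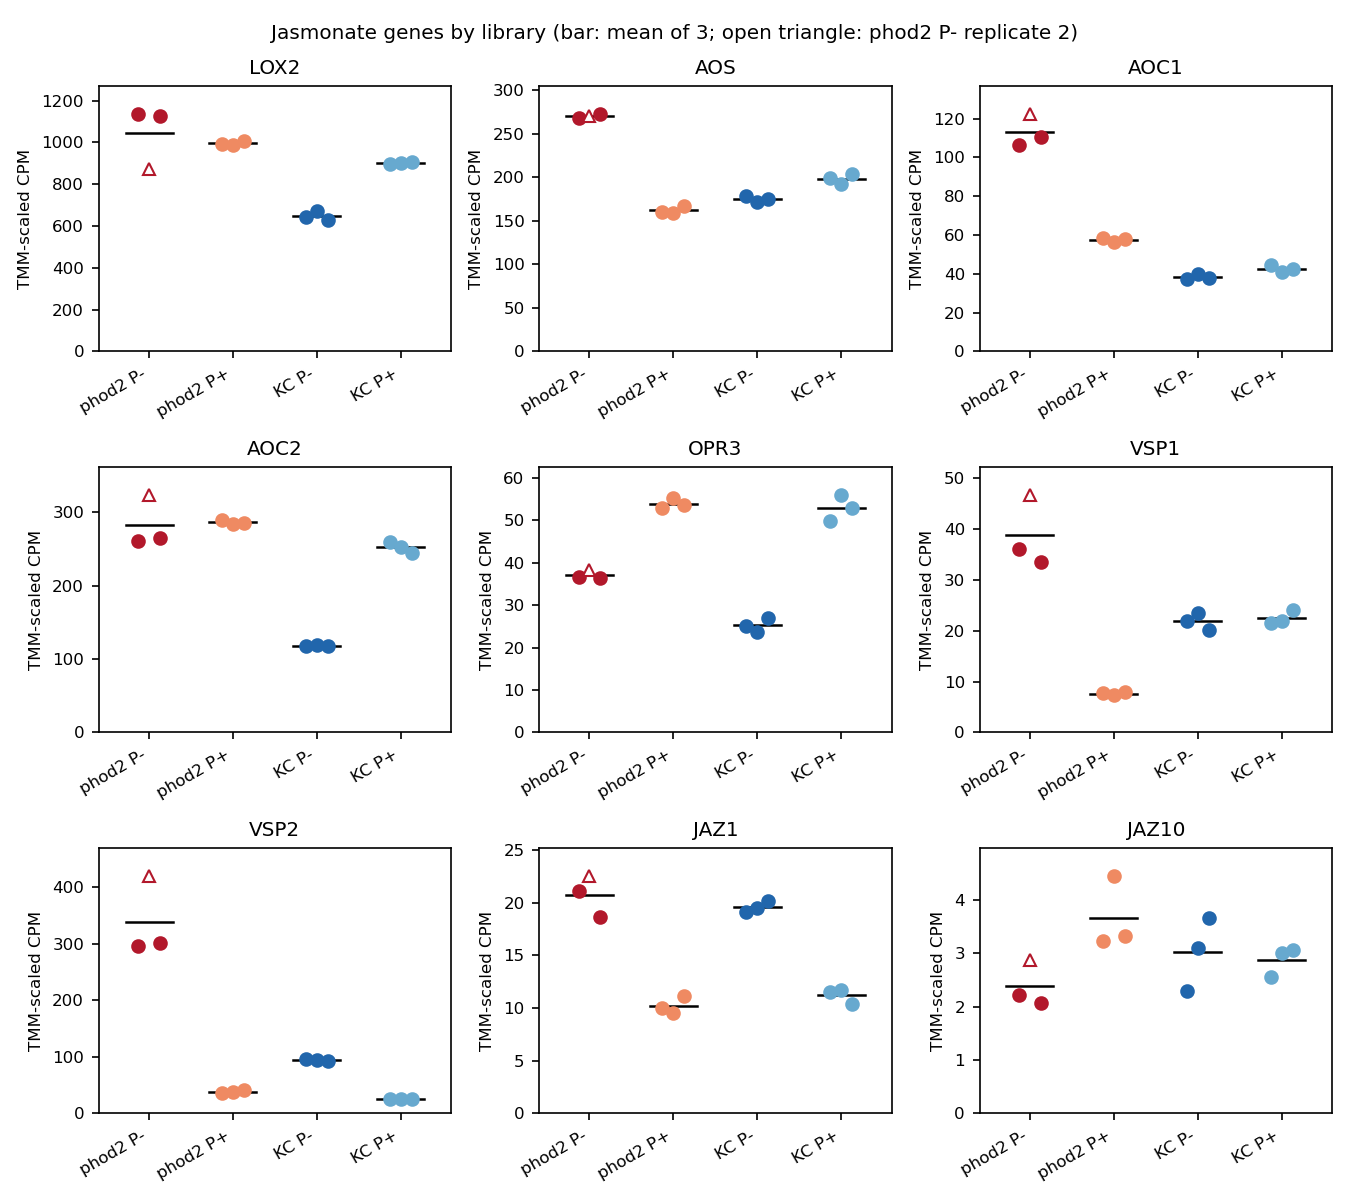
TMM-scaled CPM of the jasmonate genes in each library (points), with the mean of 3 libraries as a bar, for phod2 P-, phod2 P+, KC P- and KC P+; the open triangle is replicate 2 of phod2 P-. VSP2 is highest in phod2 P-, AOC2 and OPR3 are lowest in KC P-, and VSP1 is lowest in phod2 P+. MYC2, which had no counts in any library, is not drawn.

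The first oxidation of the fatty acid is represented by LOX2 (AT3G45140, chromosome 3, 16525245 to 16529352, plus strand), a plastid 13-lipoxygenase gene. Its 3 libraries had 1134, 875 and 1124 CPM in phod2 P-, 993, 988 and 1009 in phod2 P+, 642, 674 and 628 in KC P- and 895, 903 and 906 in KC P+. All KC P- libraries lay below all libraries of the other 3 groups, and replicate 2 was the lowest phod2 P- library by a wide margin. In P-, LOX2 was higher in phod2 than in KC by a log2 of 0.69 ± 0.080 (± SE here and below, adjusted p = 2.43e-05, quasi-likelihood test of edgeR with p-values adjusted over 20891 genes by Benjamini-Hochberg, as for every adjusted p given here), which is under 2-fold. Without replicate 2 of phod2 P- the change of LOX2 between P- and P+ in phod2 was 0.22 (adjusted p = 7.27e-11), against 0.067 ± 0.079 (adjusted p = 0.469) with it.

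AOS (AT5G42650, chromosome 5, 17097564 to 17099595, minus strand) encodes allene oxide synthase, a cytochrome P450 enzyme that takes the product of LOX2 further. It had 268, 271 and 272 CPM in phod2 P-, 160.3, 159 and 167 in phod2 P+, 179, 171 and 175 in KC P- and 199, 192 and 204 in KC P+. No groups overlapped, phod2 P- was the highest and phod2 P+ the lowest. Between conditions AOS thus ran in opposite directions, by 0.74 ± 0.051 in phod2 and -0.18 ± 0.051 in KC, both under 2-fold (adjusted p = 1.19e-08 and 0.00685).

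AOC1 (AT3G25760, chromosome 3, 9403779 to 9405338) and AOC2 (AT3G25770, chromosome 3, 9406669 to 9408071) encode allene oxide cyclases and lie 1330 bases apart on the plus strand. AOC1 had 106, 122 and 110.5 CPM in phod2 P-, 58.3, 56.2 and 57.9 in phod2 P+, 37.3, 40.05 and 37.6 in KC P- and 44.4, 41.2 and 42.6 in KC P+. Both phod2 groups lay above both KC groups. In P- the phod2 level of AOC1 was 2.95-fold that of KC. AOC2 had 261, 323 and 265 CPM in phod2 P-, 290.2, 284 and 286 in phod2 P+, 117, 119.6 and 118 in KC P- and 259, 253 and 245 in KC P+. All KC P- libraries lay far below the other groups for AOC2, and the KC P- level was 2.13-fold below that in KC P+. The neighbours therefore kept no constant ratio: AOC2 over AOC1 in FPKM was 2.29 ± 0.119 in phod2 P-, 4.57 ± 0.0538 in phod2 P+, 2.83 ± 0.0828 in KC P- and 5.41 ± 0.186 in KC P+. Their exons are 85.3% identical over 1141 aligned bases, and they share no stretch of 50 bases, so a read of that length or longer without errors would not match both. Of their 50-base stretches, 2.1% for AOC1 and 0.0799% for AOC2 occur in AOC3, a further cyclase gene nearby. A small share of reads could therefore have been counted for AOC3 or for either of the pair.

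OPR3 (AT2G06050, chromosome 2, 2359114 to 2362375, minus strand) encodes the peroxisomal OPDA reductase. It had 36.7, 38.3 and 36.4 CPM in phod2 P-, 52.8, 55.2 and 53.5 in phod2 P+, 25.2, 23.7 and 27.0 in KC P- and 49.8, 55.8 and 52.8 in KC P+. The P+ groups overlapped, and both P- groups lay below them, KC P- lowest. In KC, OPR3 fell 2.09-fold in P- relative to P+ (log2 -1.06 ± 0.068), and in phod2 the difference was -0.53 ± 0.067, under 2-fold.

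VSP1 (AT5G24780, chromosome 5, 8507590 to 8509201) and VSP2 (AT5G24770, chromosome 5, 8500468 to 8502224) are neighbours on the minus strand, 5365 bases apart. VSP1 had 36.0, 46.6 and 33.6 CPM in phod2 P-, 7.71, 7.31 and 7.88 in phod2 P+, 22.0, 23.5 and 20.1 in KC P- and 21.5, 21.8 and 24.2 in KC P+. The KC groups overlapped, phod2 P- lay above them and phod2 P+ below. VSP2 had 297, 419 and 301 CPM in phod2 P-, 35.4, 37.7 and 41.3 in phod2 P+, 96.4, 94.7 and 93.0 in KC P- and 24.8, 25.4 and 26.0 in KC P+. None of the 4 groups overlapped for VSP2, and replicate 2 was the highest phod2 P- library for both genes. VSP2 over VSP1 in FPKM was 7.70 ± 0.373 in phod2 P-, 4.41 ± 0.314 in phod2 P+, 3.83 ± 0.266 in KC P- and 0.998 ± 0.0425 in KC P+. Exons of the pair are 89.1% identical over 1300 aligned bases, and 0.388% of the 50-base stretches of VSP1 occur in VSP2, so that a small share of reads could have been counted for either gene.

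The 300 bases before the annotated start were read from the RefSeq TAIR10.1 genome for the neighbouring pairs, because their members changed to different extents, and, as examples of windows that hold an E-box, for AOS and LOX2. Capitals mark the longest run that the members of a pair share in the VSP and AOC windows, and the motif in the AOS and LOX2 windows. The windows are chr5:8509202-8509501 (minus strand) for VSP1, chr5:8502225-8502524 (minus strand) for VSP2, chr3:9403479-9403778 (plus strand) for AOC1, chr3:9406369-9406668 (plus strand) for AOC2, chr5:17099596-17099895 (minus strand) for AOS and chr3:16524945-16525244 (plus strand) for LOX2.
VSP1: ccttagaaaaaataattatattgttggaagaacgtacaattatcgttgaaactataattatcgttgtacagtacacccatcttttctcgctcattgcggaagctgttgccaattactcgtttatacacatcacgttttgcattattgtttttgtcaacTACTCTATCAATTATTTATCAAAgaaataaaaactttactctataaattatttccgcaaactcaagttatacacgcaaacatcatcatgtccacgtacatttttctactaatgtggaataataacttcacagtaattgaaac
VSP2: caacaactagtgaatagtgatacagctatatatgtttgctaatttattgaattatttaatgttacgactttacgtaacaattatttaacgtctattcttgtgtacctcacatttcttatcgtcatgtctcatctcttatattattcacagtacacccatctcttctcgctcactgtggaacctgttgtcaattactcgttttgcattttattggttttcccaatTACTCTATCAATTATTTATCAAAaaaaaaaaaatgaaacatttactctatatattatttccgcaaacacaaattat
AOC1: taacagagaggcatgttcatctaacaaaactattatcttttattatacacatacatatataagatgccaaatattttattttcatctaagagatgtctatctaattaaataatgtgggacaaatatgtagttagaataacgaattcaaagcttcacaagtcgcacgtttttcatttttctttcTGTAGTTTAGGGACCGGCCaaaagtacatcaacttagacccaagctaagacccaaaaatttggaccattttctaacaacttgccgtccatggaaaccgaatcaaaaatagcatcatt
AOC2: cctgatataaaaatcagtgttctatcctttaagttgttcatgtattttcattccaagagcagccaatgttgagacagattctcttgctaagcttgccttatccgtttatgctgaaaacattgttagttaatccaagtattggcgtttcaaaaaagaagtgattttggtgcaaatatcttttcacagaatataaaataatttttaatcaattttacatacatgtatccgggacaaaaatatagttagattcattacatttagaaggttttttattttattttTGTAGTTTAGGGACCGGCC
AOS: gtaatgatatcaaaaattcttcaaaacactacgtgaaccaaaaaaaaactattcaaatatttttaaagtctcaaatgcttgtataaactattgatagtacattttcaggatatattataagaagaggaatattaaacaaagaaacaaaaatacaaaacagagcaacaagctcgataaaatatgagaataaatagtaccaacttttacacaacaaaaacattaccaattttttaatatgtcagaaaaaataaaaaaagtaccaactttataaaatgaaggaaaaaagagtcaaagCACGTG
LOX2: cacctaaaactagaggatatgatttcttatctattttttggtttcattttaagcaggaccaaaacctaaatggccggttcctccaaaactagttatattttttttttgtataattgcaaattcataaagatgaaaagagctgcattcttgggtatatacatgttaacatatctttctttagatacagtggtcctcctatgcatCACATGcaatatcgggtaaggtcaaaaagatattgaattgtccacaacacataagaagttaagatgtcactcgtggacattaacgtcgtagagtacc
The VSP windows share a run of 23 bases, which ends 120 bases before the start of VSP1 and 54 bases before that of VSP2. In the AOC windows the longest shared run has 19 bases, ending 99 bases before the start of AOC1 and directly before that of AOC2. E-box forms that MYC factors are known to bind were searched on both strands, the palindrome CACGTG (the G-box) and CACATG, each counted on its own. The G-box was present in the AOS window alone among the 10 genes, in the last 6 bases, and in 7.09% of 27443 windows of protein-coding genes. CACATG was present in the LOX2 and JAZ10 windows and in 13.1% of all windows. These matches describe letters in the windows only.

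JAZ1 (AT1G19180, chromosome 1, 6621777 to 6623668, plus strand) encodes a repressor that joins COI1 when the hormone is bound. It had 21.1, 22.5 and 18.6 CPM in phod2 P-, 10, 9.55 and 11.1 in phod2 P+, 19.1, 19.5 and 20.1 in KC P- and 11.6, 11.7 and 10.3 in KC P+. Both P- groups lay above both P+ groups, and the genotypes overlapped within each condition. JAZ10 (AT5G13220, chromosome 5, 4218786 to 4221077, plus strand), another repressor of the family, had 2.22, 2.87 and 2.07 CPM in phod2 P-, 3.23, 4.43 and 3.31 in phod2 P+, 2.28, 3.10 and 3.65 in KC P- and 2.55, 3.00 and 3.05 in KC P+. Its libraries overlapped between the genotypes in P- and between the conditions in KC, and phod2 P+ lay above both phod2 P- and KC P+. The difference between P- and P+ in phod2 was under 2-fold (-0.63 ± 0.20, adjusted p = 0.0137). Exons of other genes cover 3.21% of the JAZ10 exons, and of the other tested genes none.

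MYC2 (AT1G32640, chromosome 1, 11798119 to 11801407, minus strand), which encodes the central bHLH factor of the pathway, was listed with 0 counts in all 12 libraries. Only if reads of its exon were counted would this allow up to 0.129 to 0.178 CPM per library from 3 counts, for counting error only. The single exon of MYC2 has 3289 bases, and 3241 of them (98.5%) are covered by exons of AT1G32630, which is annotated on the opposite strand. AT1G32630 itself had 845 counts in all, 53 to 96 per library, and 390 of its exon bases are free of other genes. Among 465 protein-coding genes with at least 95% of their exon bases covered by other genes, 357 (76.8%) had 0 counts in all libraries, against 2617 (13.1%) of 19961 genes without any covered base. How reads in overlapping exons were counted and whether strand was used are not given in the sources used here, so no level of MYC2 is given, and the part of the overlap in its 0 was not tested.

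**Figure D3:**
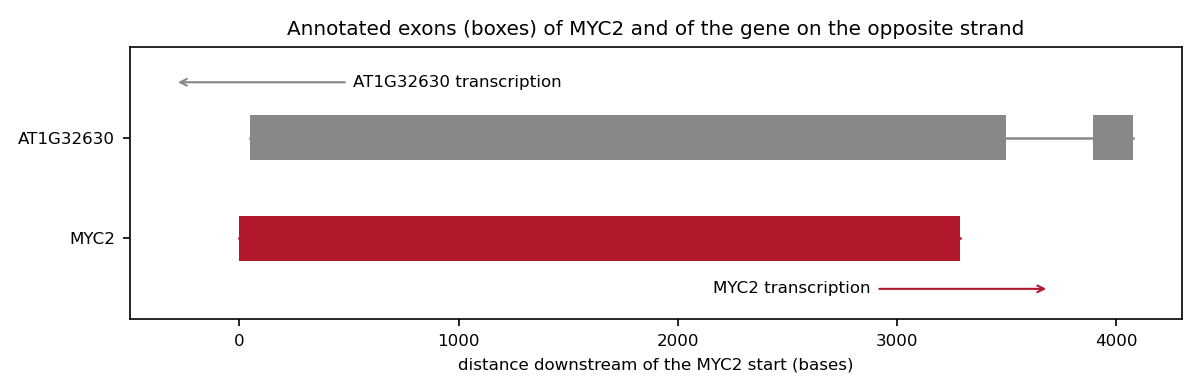
Annotated exons of MYC2 and of AT1G32630 as boxes against the distance downstream of the MYC2 start in bases. Exons of AT1G32630 cover 3241 of the 3289 bases of the MYC2 exon.

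Between the genotypes in P-, AOC1, AOC2 and VSP2 were higher in phod2 than in KC. AOC1 rose 2.95-fold (1.56 ± 0.068, adjusted p = 2.07e-09), AOC2 2.39-fold (1.26 ± 0.074, adjusted p = 3.39e-08) and VSP2 3.57-fold (1.84 ± 0.11, adjusted p = 5.01e-08). A gene counts as called, and is said to have risen or fallen, when it changed at least 2-fold with its adjusted p no higher than 0.05. These 3 of the 9 tested genes were called, all higher, where 4.69% of all tested genes were called, 2.23% higher and 2.46% lower. By adjusted p alone 7 of 9 passed, against 22.6% of all tested genes. The other 4 were higher in phod2 by less than 2-fold, namely VSP1 with 0.82 ± 0.11, LOX2 with 0.69 ± 0.080, AOS with 0.63 ± 0.051 and OPR3 with 0.56 ± 0.069. The repressor genes did not pass, at 0.083 ± 0.087 for JAZ1 (adjusted p = 0.523) and -0.34 ± 0.21 for JAZ10 (adjusted p = 0.277), and their libraries overlapped. The median of the 9 was a log2 of 0.69, beside 0.00301 over all tested genes. Without replicate 2 of phod2 P- the same 3 genes were called, at 1.51 for AOC1, 1.17 for AOC2 and 1.67 for VSP2. In the same comparison 3 of 5 root genes and 2 of 7 evening clock genes (ELF4 and PRR5) were called lower and 5 of 6 phosphate starvation genes higher, and their part in these differences was not tested. No photosynthesis or morning clock gene was called.

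Between the genotypes in P+, 1 of the tested genes was called, and the genes that passed the adjusted p did not share a direction. VSP1 fell 2.94-fold in phod2 relative to KC (-1.56 ± 0.12, adjusted p = 3.09e-07). It was the only one of 9 called, where 7.4% of all tested genes were called, 5.42% lower and 1.98% higher, a share not far from the background. By adjusted p alone 4 of 9 passed, against 28.1% of all tested genes. The other 3 were VSP2, higher by 0.59 ± 0.12, AOC1, higher by 0.43 ± 0.067, and AOS, lower, with -0.29 ± 0.051. LOX2, AOC2, OPR3, JAZ1 and JAZ10 did not pass, with log2 differences of 0.15 ± 0.079, 0.18 ± 0.072, 0.029 ± 0.065, -0.13 ± 0.094 and 0.35 ± 0.19. VSP1 and VSP2 differed in opposite directions, and their summed counts differed by -0.0648. The median of the 9 was 0.15, beside 0.036 over all tested genes. Because all libraries share one estimate of the spread, LOX2 (0.12, adjusted p = 2.23e-05) and AOC2 (0.16, adjusted p = 2.17e-06) passed the adjusted p when replicate 2 of phod2 P- was left out of the fit. All 5 root genes, LNK1 of the morning and GI of the evening clock genes were called lower in phod2 here and all 6 phosphate starvation genes higher, and their part in these differences was not tested.

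In phod2, the storage protein genes and JAZ1 were higher in P- than in P+. VSP2 rose 8.88-fold (3.15 ± 0.12, adjusted p = 1.55e-11), VSP1 5.06-fold (2.34 ± 0.12, adjusted p = 4.88e-10) and JAZ1 2.03-fold (1.02 ± 0.091, adjusted p = 2.03e-07). These 3 of 9 were called, all higher, where 24.4% of all tested genes were called and 14.1% were called higher. By adjusted p alone 7 of 9 passed, against 68% of all tested genes, so the count is near the background. AOC1 (0.97 ± 0.066) and AOS (0.74 ± 0.051) were higher and OPR3 (-0.53 ± 0.067) and JAZ10 (-0.63 ± 0.20) lower without reaching 2-fold. LOX2 (0.067 ± 0.079) and AOC2 (-0.019 ± 0.072) overlapped between the conditions. The median was 0.74, beside 0.00859 over all tested genes. JAZ1 and AOC1 lay on either side of the 2-fold limit, and the call of JAZ1 was lost without replicate 2 of phod2 P+ (0.97) and with limma on log2(FPKM + 1), while AOC1 was called without replicate 1 of phod2 P- (1.02). Without replicate 2 of phod2 P- the changes were 3.01 for VSP2, 2.23 for VSP1 and 1.00 for JAZ1, and AOC2 passed the adjusted p at -0.09 (adjusted p = 0.0117). In the same comparison all 7 morning clock genes were called higher, 6 of 7 evening genes lower and 3 of 5 root genes higher. GI, the remaining evening gene, was called higher (35.7 ± 8.96 CPM in phod2 P- and 6.17 ± 0.712 in phod2 P+). Of 5 photosynthesis genes 1, LHCB2.2, was called higher (2071 ± 319 CPM in phod2 P- and 117 ± 3.12 in phod2 P+).

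In KC, VSP2 was again higher in P- than in P+, whereas AOC2 and OPR3 were lower. VSP2 rose 3.73-fold (1.9 ± 0.12, adjusted p = 4.13e-09). AOC2 fell 2.13-fold (-1.09 ± 0.074, adjusted p = 1.15e-08) and OPR3 2.09-fold (-1.06 ± 0.068, adjusted p = 6.95e-09). These 3 of 9 were called, 1 higher and 2 lower, where 20.5% of all tested genes were called, 10.9% higher and 9.6% lower. By adjusted p alone 6 of 9 passed, against 64.5% of all tested genes. JAZ1 was higher by 0.81 ± 0.090, and LOX2 (-0.48 ± 0.080) and AOS (-0.18 ± 0.051) were lower, each under 2-fold. AOC1 (-0.16 ± 0.068, adjusted p = 0.0573), VSP1 (-0.039 ± 0.11) and JAZ10 (0.066 ± 0.20) did not pass. AOC1 did so in the fit without replicate 2 of phod2 P- (-0.16, adjusted p = 0.00343). The median was -0.16, beside 0.00805 over all tested genes. In the same comparison all 7 morning clock genes were called higher and 6 of 7 evening genes lower, and of 5 root genes 1 was called higher and 1 lower. GI, the remaining evening gene, was called higher (40.9 ± 0.349 CPM in KC P- and 12.4 ± 0.835 in KC P+). LHCB2.2 was called higher here as well (2011 ± 59.1 CPM in KC P- and 147 ± 1.95 in KC P+), alone among the 5 photosynthesis genes.

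**Figure D4:**
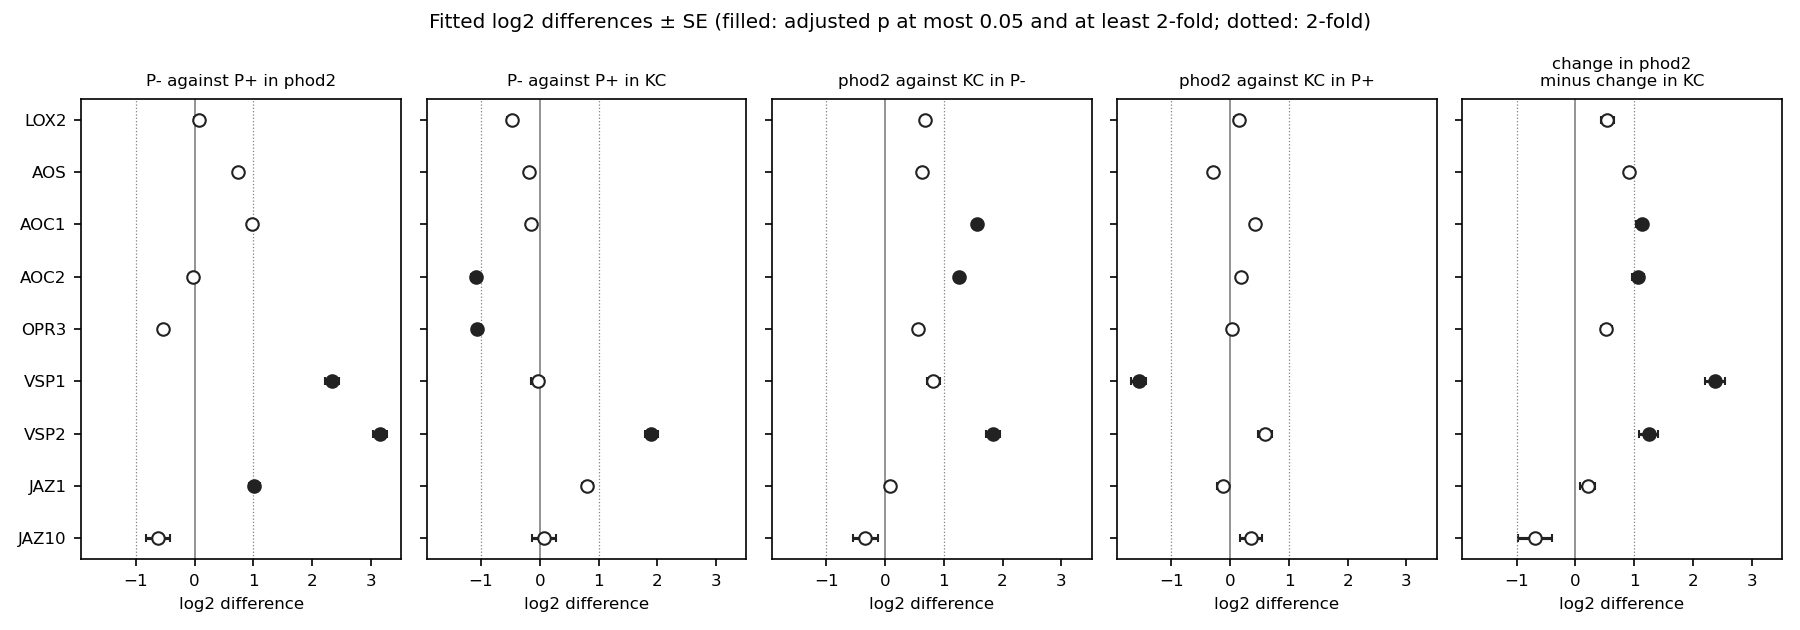
Fitted log2 difference ± SE of each tested gene in the 4 pairwise comparisons and for the change between conditions in phod2 minus that in KC; filled points passed an adjusted p of 0.05 and 2-fold, and dotted lines mark 2-fold. In P- the synthesis genes and both VSP genes lie to the right of 0, and the same 7 genes lie to the right of 0 for the difference between the genotypes' changes.

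The change between conditions itself differed between the genotypes for LOX2, AOS, AOC1, AOC2, OPR3, VSP1 and VSP2, past 2-fold in 4 of them. This was tested as the interaction, the log2 change between conditions in phod2 less the one in KC. VSP1 had 2.38 ± 0.16 (adjusted p = 7.55e-07), from 2.34 in phod2 and -0.039 in KC. VSP2 had 1.25 ± 0.16 (adjusted p = 1.63e-04), AOC1 1.13 ± 0.095 (adjusted p = 4.30e-06) and AOC2 1.07 ± 0.10 (adjusted p = 1.24e-05). These 4 of 9 were called, all more positive in phod2, where 3.08% of all tested genes were called and 2.39% were called in that direction. By adjusted p alone 7 of 9 passed, against 12% of all tested genes, the further 3 being AOS with 0.92 ± 0.072, LOX2 with 0.54 ± 0.11 and OPR3 with 0.53 ± 0.095. The repressor genes did not pass, at 0.21 ± 0.13 for JAZ1 and -0.69 ± 0.29 for JAZ10 (adjusted p = 0.329 and 0.142). The median of the 9 was 0.92, beside -0.00325 over all tested genes. Without replicate 2 of phod2 P- the values were 2.27 for VSP1, 1.11 for VSP2, 1.11 for AOC1 and 1.01 for AOC2, and all 4 were still called, while JAZ10 passed the adjusted p at -0.79 (adjusted p = 0.0359). The call of AOC2 was lost once the gene-length trend was removed from the libraries, at 0.975. 

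Further genes of the pathway were counted from 6 lists, of which 63 of 75 genes had enough counts. In phod2, 15 were called higher and 9 lower in P- than in P+, and in KC 12 higher and 7 lower, beside 24.4% and 20.5% of all tested genes called in phod2 and KC. Without replicate 2 of phod2 P- the phod2 counts were 14 and 8. Between the genotypes 4 were called higher and 3 lower in phod2 in P-, beside 4.69% of all tested genes, and without replicate 2 of phod2 P- 3 were higher and 3 lower, with JAZ5 and NATA1 lost and MYC5 gained. In P+ KTI1 alone was called, lower, beside 7.4% of all tested genes. For the interaction 5 were called higher and 2 lower, beside 3.08% of all tested genes, and without that library 6 higher and 2 lower, with ORA59 gained. The median log2 values were 0.23 and 0.0643 between conditions in phod2 and KC, 0.11 and -0.0504 between genotypes in P- and P+, and 0.17 for the interaction.

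**Figure D5:**
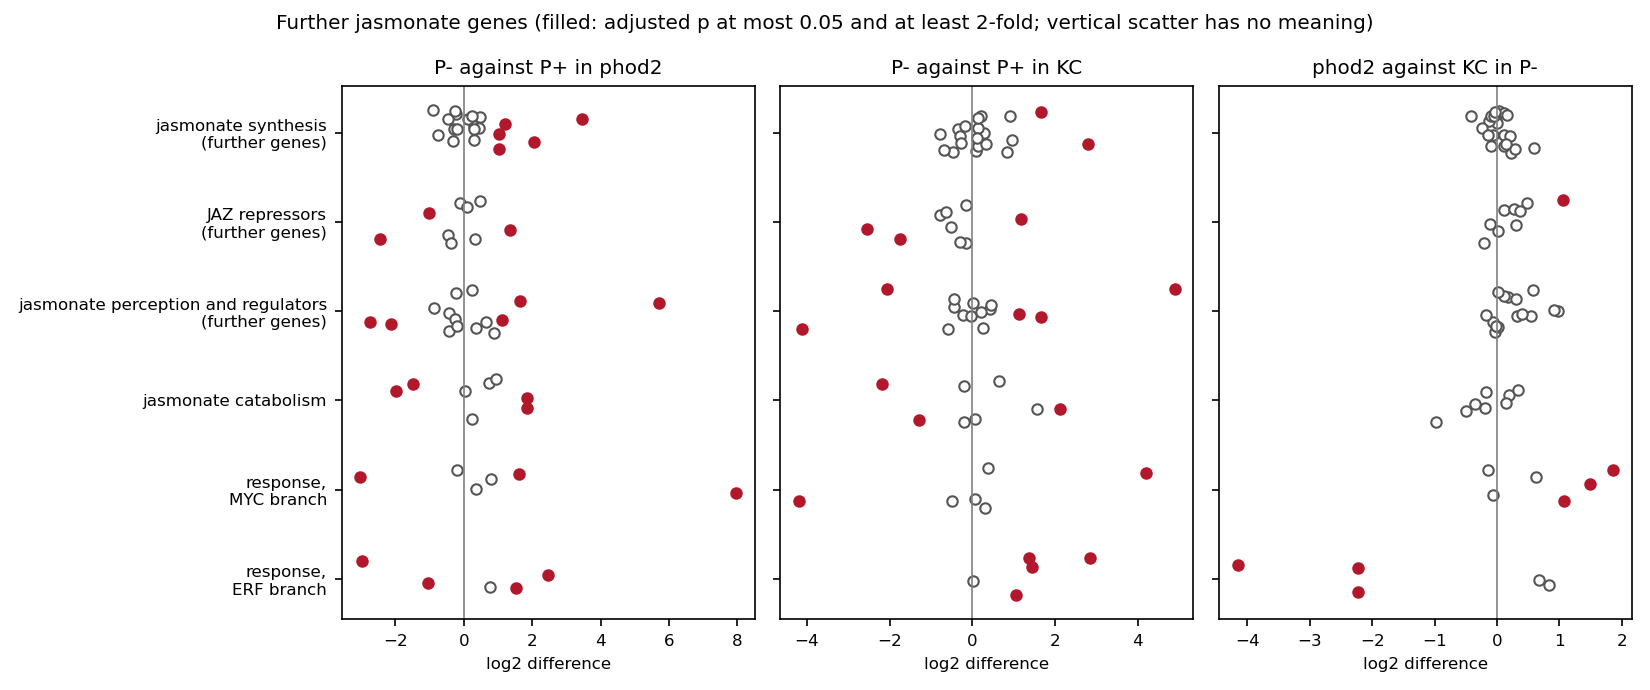
Log2 difference of the further jasmonate genes, grouped in 6 lists down the page, in 3 comparisons (each panel has its own horizontal scale). The panels show P- against P+ in phod2, P- against P+ in KC and phod2 against KC in P-. Filled points passed an adjusted p of 0.05 and 2-fold. Between the genotypes in P- the called genes are JAZ5, TAT3, CORI3 and NATA1 to the right of 0 and the 3 PDF1.2 genes to the left.

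Among 20 tested further synthesis genes, none was called between the genotypes in either condition or for the interaction. Of all tested genes, 4.69% were called between the genotypes in P-, 7.4% in P+ and 3.08% for the interaction. With so few called in the background, none among 20 is not far from it. Between conditions, JMT, which encodes the enzyme that methylates jasmonate, rose in P- in both genotypes, to 8.88 ± 1.502 CPM in phod2 P-, against 0.802 ± 0.333 in phod2 P+, and to 7.96 ± 0.829 in KC P-, against 1.14 ± 0.0790 in KC P+. LOX4, another 13-lipoxygenase gene, rose by 2.05 ± 0.12 in phod2 and 1.66 ± 0.12 in KC. AOC3, the third cyclase gene of the AOC1 and AOC2 cluster, had 15.2 ± 1.44 CPM in phod2 P-, 6.57 ± 0.463 in phod2 P+, 15.2 ± 0.363 in KC P- and 7.73 ± 1.18 in KC P+. It rose in phod2 (1.205 ± 0.11), had 0.97 ± 0.11 in KC, just under 2-fold, and had no detectable difference between the genotypes in P- (-0.002 ± 0.10, adjusted p = 0.992), where AOC1 and AOC2 were called. AOC4, on another chromosome, had 0.20 ± 0.11 there (adjusted p = 0.195). JAR1, which makes the active conjugate, had 60.6 ± 5.60 CPM in phod2 P-, 51.8 ± 0.913 in phod2 P+, 62.2 ± 2.16 in KC P- and 57.0 ± 0.972 in KC P+.

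Of 9 tested further JAZ genes, JAZ5 rose and JAZ7 and JAZ4 fell in P- in each genotype, a share not far from the 24.4% and 20.5% of all tested genes called in phod2 and KC. JAZ5 had log2 changes of 1.36 ± 0.24 in phod2 and 1.19 ± 0.30 in KC. JAZ7 had 0.464 ± 0.251 CPM in phod2 P-, 2.49 ± 0.385 in phod2 P+, 0.519 ± 0.155 in KC P- and 3.06 ± 0.278 in KC P+, log2 changes of -2.45 ± 0.30 in phod2 and -2.54 ± 0.28 in KC. JAZ4 changed by -1.02 ± 0.23 in phod2 and -1.75 ± 0.21 in KC, and its call in phod2 was lost without replicate 2 of phod2 P-. JAZ5 was also higher in phod2 than in KC in P- (1.05 ± 0.24, adjusted p = 0.00564), a call that was lost without the same library.

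Of 15 tested genes of perception and regulation, 3 rose and 2 fell in P- in each genotype. Beside this, 24.4% of all tested genes were called in phod2 and 20.5% in KC. None of the 15 was called between the genotypes, where 4.69% of all tested genes were called in P- and 7.4% in P+, so this is not far from the background. COI1, the receptor gene, had 45.9 ± 2.28 CPM in phod2 P-, 36.0 ± 2.33 in phod2 P+, 47.9 ± 1.42 in KC P- and 35.4 ± 2.15 in KC P+, and its changes of 0.35 ± 0.071 in phod2 and 0.44 ± 0.071 in KC were under 2-fold. MYC5, which encodes a relative of MYC2, had 13.1 ± 0.242 CPM in phod2 P-, 0.246 ± 0.103 in phod2 P+, 6.61 ± 1.16 in KC P- and 0.232 ± 0.183 in KC P+. Its rise on the log2 scale was 5.72 ± 0.26 in phod2 and 4.89 ± 0.29 in KC. The size of that rise rests on few reads in P+, 15 counts in all of phod2 P+ and 14 in all of KC P+. MYC5 was called higher in phod2 P- than in KC P- without replicate 2 of phod2 P-. ORA59, an ERF factor of the branch that jasmonate shares with ethylene, fell, at log2 changes of -2.74 ± 0.25 in phod2 and -4.12 ± 0.28 in KC. The size of its fall rests on few reads in P-, 24 counts in all of phod2 P- and 12 in all of KC P-. ANAC055, a NAC factor, fell likewise, at -2.14 ± 0.20 in phod2 and -2.07 ± 0.23 in KC.

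Of 8 tested catabolism genes, 2 rose and 2 fell in phod2, where 24.4% of all tested genes were called, and 1 rose and 2 fell in KC, where 20.5% were. CYP94B3, which encodes an enzyme that hydroxylates the active conjugate, rose by 1.83 ± 0.18 in phod2 and 2.13 ± 0.15 in KC. ILL6, an amidohydrolase gene, fell to 5.22 ± 0.634 CPM in phod2 P-, against 20.4 ± 1.75 in phod2 P+, and to 4.68 ± 0.252 in KC P-, against 21.3 ± 1.41 in KC P+. JOX2, a jasmonate oxidase gene, changed by -1.48 ± 0.091 in phod2 and -1.28 ± 0.086 in KC. ST2A, which encodes a sulfotransferase of hydroxylated jasmonate, rose by 1.85 ± 0.19 in phod2 and had an interaction of 1.199 ± 0.26 (adjusted p = 0.00828).

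In the output branches, genes were called in both directions between the genotypes in P-, where 4.69% of all tested genes were called, 2.23% higher and 2.46% lower. In the MYC branch TAT3, CORI3 and NATA1 were called higher in phod2, 3 of 6 tested genes, and 2 of 6 without replicate 2 of phod2 P-. In the ERF branch the 3 PDF1.2 genes were called lower, out of 5, while CHIB (0.83 ± 0.13) and PR4 (0.68 ± 0.084) were higher without reaching 2-fold. CORI3, which encodes a cystine lyase, had 182 ± 2.55 CPM in phod2 P-, 104 ± 2.58 in phod2 P+, 64.4 ± 3.05 in KC P- and 91.2 ± 2.19 in KC P+, a log2 difference of 1.498 ± 0.057 between the genotypes in P- (adjusted p = 9.21e-10) and an interaction of 1.31 ± 0.079. TAT3, a tyrosine aminotransferase gene, had 0.640 ± 0.129, 5.17 ± 0.439, 0.171 ± 0.0669 and 3.16 ± 0.495 CPM in the same order and differed by 1.86 ± 0.41 in P-. That difference rests on few reads, 35 counts in all of phod2 P- and 9 in all of KC P-. NATA1, an acetyltransferase gene, had 5.65 ± 1.23 CPM in phod2 P- and 2.63 ± 0.384 in KC P-, and its call between them (1.08 ± 0.20) was lost without replicate 2 of phod2 P-. It had 309 counts in phod2 P- and 1 in phod2 P+, a ratio of 328.7 with a 95% counting interval of 58.6 to 13026. KTI1, a trypsin inhibitor gene, was lower in phod2 than in KC in P+, at 13.4 ± 1.19 against 34.5 ± 2.03 CPM (-1.36 ± 0.12, adjusted p = 9.92e-07).

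The PDF1.2 genes of the ERF branch encode defensins. PDF1.2a had 0.635, 0.999 and 0.841 CPM in phod2 P-, 2.03, 1.61 and 1.48 in phod2 P+, 3.87, 3.88 and 3.71 in KC P- and 1.40, 1.42 and 1.61 in KC P+. All KC P- libraries lay above all others, and all phod2 P- libraries lay below all others. The difference between the genotypes in P- was -2.23 ± 0.20 (adjusted p = 2.24e-06) and the interaction -2.43 ± 0.28 (adjusted p = 7.26e-05), opposite in sign to those of VSP1 and VSP2. PDF1.2c differed by -4.16 ± 0.46 and PDF1.2b by -2.22 ± 0.33 in P-, both at levels of at most 2.04 CPM in any group mean, and reads of these near-identical defensin genes may have been split between them. CHIB, a basic chitinase gene on the same list, went the other way in the interaction (1.42 ± 0.19), at 84.9 ± 22.6 CPM in phod2 P- and 47.7 ± 1.13 in KC P-.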

How the data were processed

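Whole-seedling RNA of 12 libraries was measured by RNA sequencing. The authors deposited 1 table of raw read counts per gene with FPKM and exonic lengths, per the file headers. The deposited FPKM agreed within 0.006 with values recomputed from the counts in 100% of cases. The sources used here do not give aligner, counter, strand use or read length. The submitters' processing notes name mm10, a mouse build, but 32548 of 32833 genes matched a locus of the RefSeq TAIR10.1 annotation, 99.95% with the same start and end. Labels gave the groups. The raw counts were scaled with TMM factors, filtered with filterByExpr (smallest count 10) and tested with edgeR 4.0.16 (R 4.3.3, glmQLFit and glmQLFTest) in 1 fit of 4 group means over 12 libraries, for 20891 genes, with Benjamini-Hochberg adjustment over all of them. A call needed at least a 2-fold change with an adjusted p no higher than 0.05, the limits of the series' design text. Levels are TMM-scaled CPM or FPKM, and the common biological coefficient of variation was 8.47%. Log2 CPM used a prior count of 2. The SE of a log2 difference was its absolute value divided by the square root of the quasi-likelihood F statistic. Alternatives used DESeq2 1.42.0 and limma 3.58.1, and sequences were aligned with Biopython 1.88. The procedure was tested on simulated data with the same spread for all genes and with changes set in KC P- alone. Those data held no library like replicate 2 of phod2 P- and no length trend, so they do not cover the results for phod2 P-.

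The genes, the lists and the rules were chosen with earlier results of these data known. Named from each list were up to 3 called genes with the largest log2 change, together with COI1, JAR1, AOC3, AOC4, JAZ7, PDF1.2a, CCA1, TOC1 and SPX1. For LOX2, VSP2, JAZ10 and MYC2, the 3 genes with the most similar pattern were also named. PR4, LHCB2.2, LNK1, GI, ELF4, PRR5, PYK10, COBL9, EXPA7, EXPA18 and CASP1 were named after their values were seen. P-values rest on the spread between libraries within groups, estimated in 1 fit over all 4 groups of 3 libraries. The design text calls these libraries biological replicates. Replicate 2 of phod2 P- therefore also entered the spread used for KC. For LOX2 between conditions in KC, the adjusted p of the quasi-likelihood test was 1.21e-04 with that library and 2.98e-26 without it.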

Additional observations from a re-analysis of the deposited data

Results flagged for a closer look

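The change between P- and P+ differed between phod2 and KC for 7 of the 9 tested genes, as the log2 change in phod2 less the one in KC, with an adjusted p up to 0.05 (quasi-likelihood test of edgeR, Benjamini-Hochberg). In VSP1 the value was 2.38 ± 0.16 (SE), in VSP2 1.25 ± 0.16, in AOC1 1.13 ± 0.095 and in AOC2 1.07 ± 0.10, all past 2-fold. In AOS it was 0.92 ± 0.072, in LOX2 0.54 ± 0.11 and in OPR3 0.53 ± 0.095, all under 2-fold. AOS ran in opposite directions in the genotypes, by 0.74 in phod2 and -0.18 in KC. All 7 values rest on KC P+ and would hold any difference between WT and KC. Without replicate 2 of phod2 P- the 7 values ranged from 0.54 in OPR3 to 2.27 in VSP1.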

How the results depend on the processing

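Alternatives were DESeq2, its size factors in edgeR, no filter on low counts, limma on log2(FPKM + 1) and log2(FPKM + 0.1), removal of the gene-length trend, summing of the paired genes, a replicate block and leaving out each library in turn. With limma on log2(FPKM + 1), which shrinks changes of low genes, called genes were 2718 (P- against P+ in KC), 3370 (in phod2), 627 (phod2 against KC in P+), 432 (in P-) and 354 (interaction), and further jasmonate genes 14 (P- against P+ in phod2) and 4 (phod2 against KC in P-). Further genes called between the genotypes in P+ were 2 with DESeq2, without the filter and without the length trend, and 1 to 2 with single libraries left out (2 without replicate 3 of KC P+, replicates 2 or 3 of phod2 P+, or replicates 1 or 2 of phod2 P-). Signs turned only in uncalled changes near 0 or in summed pairs. VSP1 in KC lay between -0.0943 and 0.016 and JAZ10 in KC between -0.0909 and 0.236 with single libraries left out, AOC2 in phod2 between -0.0859 and 0.0345, and OPR3 between the genotypes in P+ between -0.0115 and 0.0701. LOX2 in phod2 was -0.00838 with limma on log2(FPKM + 1) and -0.00845 with + 0.1. Summed with VSP2, VSP1 changed by 1.28 in KC, and the VSP sum differed by -0.0648 between the genotypes in P+. The AOC sum changed by 0.202 in phod2 and by -0.913 in KC, which is under 2-fold, so the call of AOC2 in KC was lost there. JAZ1 in phod2 lost its call with limma, at 0.847 with + 1 and 0.943 with + 0.1. Replicate numbers did not pair the libraries, at correlations of -0.063 to 0.062 between same-numbered libraries. The replicate block called 4287 genes in KC, 5104 in phod2, 1529 between the genotypes in P+, 967 in P- and 617 for the interaction, and moved no count of jasmonate genes. Depth limits the low genes, such as JAZ10, JAZ7, MYC5, ORA59, NATA1, TAT3 and the PDF1.2 genes.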

Other observations

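The genes whose pattern over the 12 libraries was most like that of VSP2, by Pearson's r of log2 CPM, were GSTF6 and GSTU20, which encode glutathione transferases, and PYD4. Their r was 0.997, 0.996 and 0.996, over libraries that form 4 groups and share the same scaling. GSTF6 had 366 ± 44.6 CPM in phod2 P-, 41.5 ± 1.45 in phod2 P+, 106 ± 3.30 in KC P- and 32.2 ± 0.583 in KC P+ (SD, n = 3). For LOX2 the most alike were ABCA10 with an r of 0.948, PRXR1 with 0.908 and ARCK1 with 0.896. ABCA10 and ARCK1 had few reads. Their group means were lowest in KC P-, at 0.318 and 0.276 CPM, and highest in phod2 P+, at 2.42 and 2.26 CPM. PRXR1, a peroxidase gene, had 1629.8 ± 22.8 CPM in phod2 P-, 1609 ± 9.92 in phod2 P+, 1267 ± 4.91 in KC P- and 1596 ± 12.4 in KC P+. For JAZ10 the highest r was 0.800, with GCP1, then 0.781 with PUMP1 and 0.780 with AT2G31170. MYC2, at 0 throughout, has no such measure.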
